A study of Homo sapiens with 7 samples.

Results

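The miR-15/16 family was followed here in captures of BRAF-X1 mRNA from A375, a human melanoma cell line. The members were the mature microRNAs hsa-miR-15a-5p, hsa-miR-15b-5p, hsa-miR-16-5p and hsa-miR-497-5p (written without the species prefix from here on), chosen by name, and all 4 were found among the 480 mature names of the deposited table. Where a name had several hairpin rows, the row with the most reads was to stand for it, but each of these 4 had 1 row.

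The study asked which microRNAs sit on the X1 isoform of BRAF, a kinase mRNA of the MAPK pathway. Per the labels' protocols, harvest came 24 h after plating and was followed by 10 min of crosslinking in 1% formaldehyde and the miR-CATCHv2.0 protocol. That protocol uses probes to retrieve an mRNA together with its bound small RNA, which is then sequenced. There were 3 captures with the ODD probe set and 3 with the EVEN probe set, both against the BRAF-X1 3' UTR and together called X1 probes here, and 1 capture with scrambled probes. All 7 libraries came from the same line under the same protocol, so the labels tell the groups apart by their probes, beside a number in the descriptions that is taken up with the comparison it touches.

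MicroRNAs of this family are loaded into Argonaute and guide it to mRNAs through their seed, the stretch near the 5′ end. The family is known for restraining the cell cycle and survival, with BCL2 and CCND1 among its established targets, and the chromosome 13 locus that holds miR-15a and miR-16-1 is often deleted in chronic lymphocytic leukaemia. miR-16-5p is also abundant in red blood cells and in many cultured lines.

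The mature sequences, from RefSeq on GRCh38.p14, are shown because the shared seed (bases 2 to 8, in capitals) defines the family, while the remaining bases allow its members to be told apart in sequencing.
miR-16-5p: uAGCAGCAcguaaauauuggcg
miR-15a-5p: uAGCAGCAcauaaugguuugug
miR-15b-5p: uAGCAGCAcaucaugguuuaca
miR-497-5p: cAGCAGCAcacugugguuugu
Positions were counted from 1 at the 5′ end and compared without gaps. miR-15a-5p and miR-15b-5p were identical at 18 of 22 positions and differed by A12C, G20A, U21C and G22A, with the base of miR-15a-5p given first. miR-16-5p matched miR-15a-5p at 16 of 22 positions and miR-15b-5p at 14 of 22. It matched miR-497-5p at 11 of 21 positions, the fewest of any pair. miR-15a-5p and miR-497-5p also differed at 4 positions, the first of them U1C, with the base of miR-15a-5p given first. No pair of members was separated by fewer than 4 bases, and all of these lay outside the seed. Of the 2370 mature names in the RefSeq table, 7 carried the family seed at bases 2 to 8, and 4 of these had a row in the deposited table, the 4 members.

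The remaining names with this seed were miR-195-5p, miR-424-5p and miR-6838-5p, which had no row among those used here. The sequence of miR-195-5p (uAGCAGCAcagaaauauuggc) is closer to that of miR-16-5p than any other member's is. The aligner and counting rule were not given, and whether reads of miR-195-5p were counted under miR-16-5p was not tested. Of the wider list of relatives, which added miR-503-5p and miR-646, 1 of 5 had a row. miR-503-5p, made from the same X-linked cluster as miR-424, differs from the family in the last base of its seed.
miR-503-5p: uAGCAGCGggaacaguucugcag
It had 1 read in the scrambled library and 0 in the 6 X1-probe libraries.

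The genes lie in 3 clusters. MIR15A (chr13:50049119-50049201, minus strand) and MIR16-1 (chr13:50048973-50049061, minus strand) are 57 bases apart within the span of DLEU2, a long noncoding RNA gene. MIR15B (chr3:160404588-160404685, plus strand) and MIR16-2 (chr3:160404745-160404825, plus strand) are 59 bases apart within the spans of SMC4, which encodes a condensin subunit, and of the readthrough gene TRIM59-IFT80. MIR497 (chr17:7017911-7018022, minus strand) lies within MIR497HG. All coordinates are RefSeq's on GRCh38.p14, and the table used for host genes gives gene spans, not exons. miR-16-5p has the same mature sequence at chr13:50049027-50049048 and chr3:160404754-160404775. The deposited table lists it once, under the hairpin of chromosome 13, so its reads cannot be assigned to a locus. It was 1 of 35 such names with a lone row, of the 48 names in the table with several RefSeq loci.

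Library depth decided how well each member could be measured. Depth, counted over all rows, ran from 4049 to 35508 reads with X1 probes and was 4647 reads with scrambled probes. RPM is a read's share of that depth scaled to a total of 1e+06, so a read was worth 28.2 RPM in ODD replicate 2, the deepest library, and 247 RPM in ODD replicate 3, the shallowest. Single-library intervals are 95% Clopper-Pearson (exact) and were computed from reads, and a count of 0 was taken to allow up to 3 reads. Both cover counting error only, because no molecular identifiers are given and several reads may come from the same molecule. As markers of the labelled cell type, 3 of 7 listed pigment-cell and melanoma microRNAs had a row, namely miR-204-5p, made in pigment cells, with 152 reads from X1 probes and 4 from scrambled probes, miR-146a-5p with 413 and 21 reads, and miR-509-3p with 5 and 1. miR-211-5p, the melanocyte relative of miR-204-5p, had no row among those used here, nor had miR-506-3p, miR-508-3p and miR-514a-3p. The summed level of the list, most of it miR-146a-5p, which other cells also make, was 6672 to 9020 RPM with X1 probes and 5595 RPM with scrambled probes.

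miR-16-5p carried nearly the whole family. It held 468 of the 495 family reads over the 7 libraries, or 94.5%. miR-15a-5p gave 16 reads (3.23%), miR-15b-5p 10 reads (2.02%) and miR-497-5p 1 read (0.202%). By library, miR-16-5p made up 91.4% to 100% of the family reads with X1 probes and 92.0% with scrambled probes (23 of 25 reads, exact 95% interval 74.0% to 99.0%). With X1 probes the family made up 0.624% to 1.17% of the reads that remain with 1 row per mature name, and 0.719% with scrambled probes. Mature lengths were 21 or 22 bases. These shares are of reads and were not corrected for length, and adapters are known to ligate to some microRNAs more readily than to others.

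miR-16-5p is made from both 2-gene clusters. With ODD probes, replicates 1, 2 and 3 gave 86, 201 and 20 reads of it, or 7947, 5661 and 4939 RPM. With EVEN probes they gave 52, 64 and 22 reads, or 5596, 4416 and 4615 RPM. The scrambled library had 23 reads, or 4949 RPM (exact 95% interval 3140 to 7417 RPM). All 7 libraries thus held the microRNA at 4416 RPM or more. ODD replicate 1 stood highest, and the scrambled library lay among the X1-probe libraries, above 3 of them and below the other 3. In the deepest library the exact 95% interval was 4907 to 6497 RPM. Over the 7 libraries it ranked 19 to 30 by level, among the 181 to 344 microRNAs found in each.

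**Figure D1:**
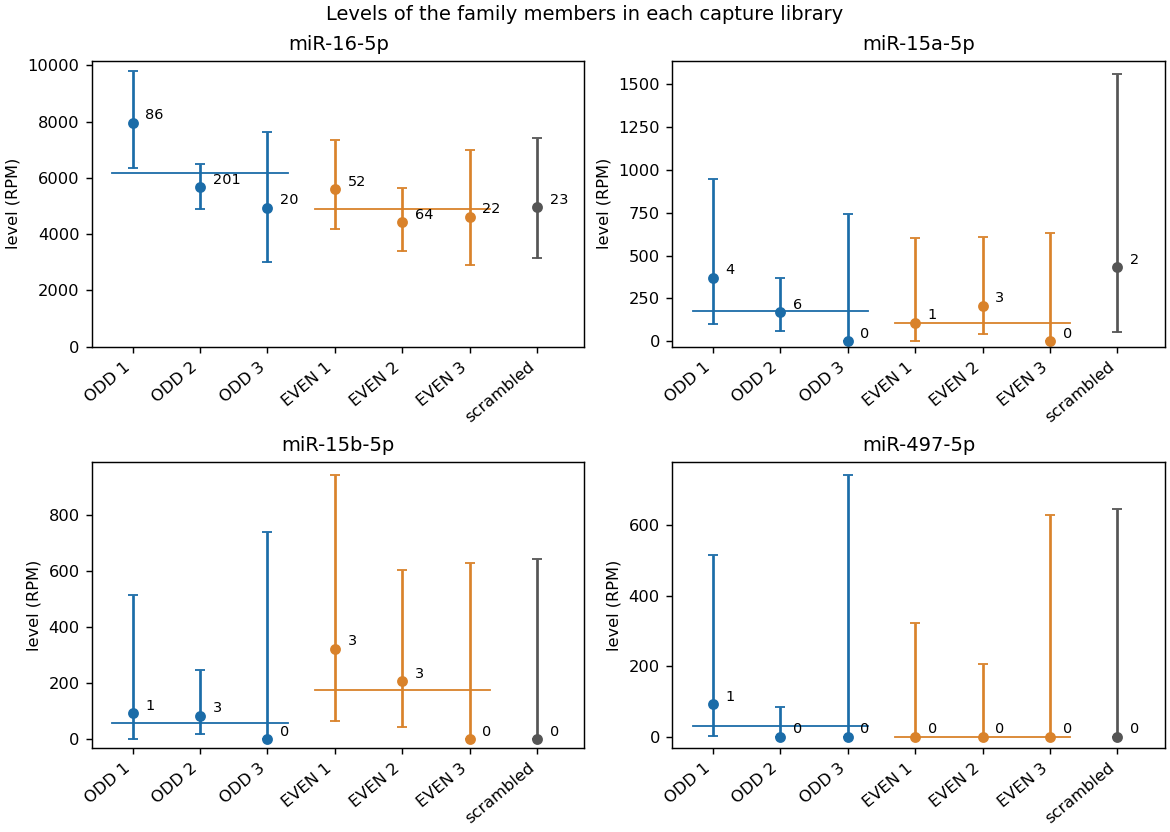
Level in RPM (y axis) of each family member in each library (x axis: ODD replicates 1 to 3, EVEN replicates 1 to 3, scrambled), with a panel for each microRNA. Points carry their read number, bars are exact 95% intervals (up to the level of 3 reads where the count is 0) and horizontal lines are means of 3 libraries. miR-16-5p lies between 4416 and 7947 RPM in every library, while miR-15a-5p, miR-15b-5p and miR-497-5p rest on 0 to 6 reads each.

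With X1 probes miR-16-5p averaged 5529 ± 1288 RPM (SD, n = 6), against 4949 RPM in the scrambled library, a ratio of 1.12. At the mean X1-probe level the scrambled library would hold 25.7 reads, where 23 were found. The difference by limma on log2(RPM + 10) was 0.13 (SE 0.37, 95% interval -0.62 to 0.88, adjusted p = 0.841, higher in 3 of 6 libraries). It did not pass the threshold of 0.05. RPM is a share of each library, so a change in the total amount of small RNA captured would not show in this interval. With 1 scrambled library, no spread could be measured in that group. The fit took the spread found within the ODD and EVEN groups, drawn towards a trend with level over all 242 microRNAs tested. It used 28.6 prior degrees of freedom beside 4 residual ones. Without the eBayes trend the 95% interval of miR-16-5p was -1.19 to 1.45. The number 12 in the descriptions, whose meaning the labels do not give, marks the scrambled library and replicate 3 of both probe sets. Within these 3 libraries miR-16-5p averaged 4777 RPM with X1 probes and had 4949 RPM with scrambled probes.

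The 2 probe sets were then compared with each other, since both were designed against the same 3' UTR. miR-16-5p averaged 6182 ± 1570 RPM in the ODD libraries and 4876 ± 632 RPM in the EVEN libraries (SD, n = 3 each). The ranges overlapped, because ODD replicate 3 lay below EVEN replicate 1, a library with another description number. Between ODD and EVEN libraries of the same number, the difference on the log2(RPM + 10) scale was 0.51 for number 9. It was 0.36 for number 10 and 0.098 for number 12, so ODD was the higher in each pair. The limma difference on the log2(RPM + 10) scale was 0.32 (SE 0.28, 95% interval -0.25 to 0.89, adjusted p = 0.979), and the exact two-sided permutation p was 0.2, where 3 against 3 allows no p below 0.1. ODD replicate 1 held much of this difference. Without it the ODD mean was 5300 RPM, against 4876 RPM with EVEN probes, and the limma difference was 0.12. With every library kept and the replicate number as a block, the limma difference was 0.32, with a 95% interval of -0.094 to 0.73.

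miR-15a-5p is the chromosome 13 partner of miR-16-1. With ODD probes, replicates 1, 2 and 3 gave 4, 6 and 0 reads, and with EVEN probes 1, 3 and 0. The scrambled library had 2 reads. It averaged 142 ± 140 RPM over the X1-probe libraries (SD, n = 6), against 430 RPM in the scrambled one, and the scrambled value lay above all 6 X1-probe values. Among the 242 microRNAs tested, 33.9% had a scrambled value outside the X1-probe range. The 2 scrambled reads have an exact 95% interval of 52.1 to 1554 RPM, which holds 4 of the 6 X1-probe values, the others being 0. By limma the difference on the log2(RPM + 10) scale was -2.56 (95% interval -7.56 to 2.44, adjusted p = 0.673). Its size follows the pseudocount, since 1 read was worth more than 10 RPM in every library. ODD and EVEN libraries overlapped, at 180 ± 185 and 105 ± 104 RPM (SD, n = 3 each), with a limma difference of 0.47 (95% interval -3.31 to 4.25, adjusted p = 0.981).

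miR-15b-5p is the chromosome 3 partner of miR-16-2. With ODD probes, replicates 1, 2 and 3 gave 1, 3 and 0 reads, and with EVEN probes 3, 3 and 0. The scrambled library gave 0, which allows up to 646 RPM. With X1 probes it averaged 117.8 ± 126 RPM (SD, n = 6), under that limit, so no fold is given. The mean X1-probe level corresponds to 0.547 reads in the scrambled library. The limma difference on the log2(RPM + 10) scale was 2.68 (95% interval -2.42 to 7.78, adjusted p = 0.673). Against 0 reads its size is set by the pseudocount and is no measure of a fold, and it was 4.83 with a pseudocount of 1 and 0.92 with 100. The ODD libraries averaged 59.0 ± 51.2 RPM and the EVEN libraries 177 ± 164 RPM (SD, n = 3 each). These differed by -0.97 on the same scale (95% interval -4.82 to 2.89, adjusted p = 0.981 by limma).

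miR-15a-5p and miR-15b-5p shared their empty libraries. Neither was read in replicate 3 of ODD (4049 reads deep) or of EVEN (4767 reads deep), where 0 reads allow up to 741 and 629 RPM. Of the 242 microRNAs tested, 15.3% had 0 reads in both of these libraries. At its share of all reads, miR-15a-5p would give 0.775 reads at the depth of the ODD library and 0.913 at that of the EVEN library. For miR-15b-5p the corresponding values were 0.484 and 0.570 reads.

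**Figure D2:**
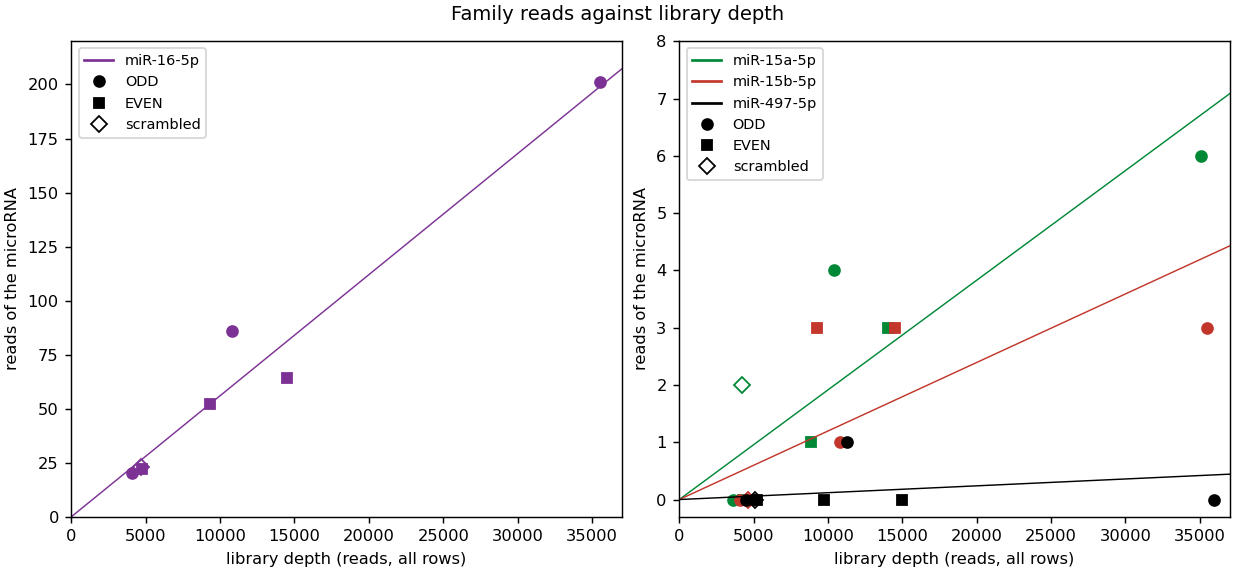
Reads of each family member (y axis) against the depth of the library in reads (x axis), with miR-16-5p on the left and the other members on the right, where points are shifted slightly sideways so that they do not hide each other. Lines show each member's share of all reads of the 7 libraries. miR-16-5p runs along its line from 20 reads in ODD replicate 3 to 201 in ODD replicate 2. ODD replicate 1 lies above it at 86 reads, where the line gives 60.6. EVEN replicate 2 lies below it at 64 reads, where the line gives 81.1. No other member exceeds 6 reads.

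miR-497-5p, from the chromosome 17 cluster that also holds miR-195, had 1 read, in ODD replicate 1, which was 92.4 RPM. It had 0 reads in the remaining 5 X1-probe libraries and in the scrambled library. In the deepest library, ODD replicate 2, 0 reads allow up to 84.5 RPM. It did not reach 10 RPM in 3 libraries, the minimum for a test, and was the member left out of the fit.

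Over the comparisons, 0 of the 3 tested members passed for X1 probes against scrambled, where 0.826% of the 242 microRNAs tested did. These were miR-184 and miR-17-5p, both higher against 0 scrambled reads, and 0 microRNAs were called higher with the replicate number as a block or by limma-voom on the recovered reads. For ODD against EVEN 0 of 3 members passed, where 0.413% of microRNAs did, namely let-7f-5p, lower in the ODD libraries. At an unadjusted p under 0.05 by limma, 0 of 3 members passed in either comparison, where 8.68% and 4.55% of the microRNAs tested did. The median log2 difference of the 3 members was 0.13 for X1 probes against scrambled, with values on both sides of 0, and 0.096 over all 242. For ODD against EVEN it was 0.32 for the members and 0.072 over all 242. In both comparisons the members' median was the value of miR-16-5p. The quartiles over all 242 were -0.84 and 1.92 for X1 probes against scrambled, and -0.47 and 0.78 for ODD against EVEN. Over the 68 tested microRNAs with a mean of at least 1000 RPM, miR-16-5p among them, the quartiles were closer together. They were -0.46 and 0.22 for X1 probes against scrambled, where miR-16-5p at 0.13 lay between them. For ODD against EVEN they were -0.095 and 0.28, and miR-16-5p at 0.32 lay above the upper one. No member had ODD and EVEN libraries that did not overlap, which 7.02% of microRNAs had.

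**Figure D3:**
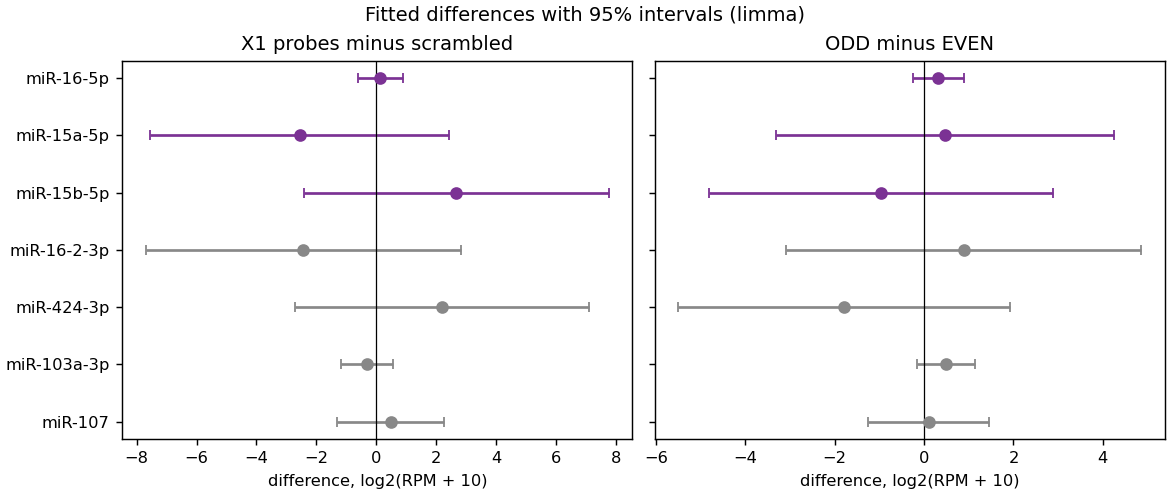
Limma differences on the log2(RPM + 10) scale (x axis) with 95% intervals for the tested members (purple) and the tested opposite arms and offset-seed microRNAs (grey), for X1 probes minus scrambled (left) and ODD minus EVEN (right). Every interval holds 0, and that of miR-16-5p (-0.62 to 0.88 against scrambled) is several times narrower than those of miR-15a-5p and miR-15b-5p.

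The opposite arms of the same hairpins are usually degraded when the 5p arm is loaded. Of 8 opposite arms listed for the family and its relatives, 3 had a row. For miR-16-2-3p, the opposite arm at the chromosome 3 locus, the ODD replicates gave 5, 1 and 0 reads, the EVEN replicates 0, 4 and 0, and the scrambled library 1. Over the 7 libraries miR-16-5p had 42.5 times its reads, 468 against 11, although the 5p reads may come from both loci. miR-16-2-3p averaged 128 ± 196 RPM over the X1-probe libraries (SD, n = 6), against 215 RPM in the scrambled one, with a limma difference of -2.44 on the log2(RPM + 10) scale (95% interval -7.70 to 2.82, adjusted p = 0.673). ODD replicate 1, which had the highest level of miR-16-5p, also had the highest level of miR-16-2-3p, at 462 RPM. That level rests on 5 reads, with an exact 95% interval of 150 to 1078 RPM. The interval holds the 276 RPM of EVEN replicate 2 and the 215 RPM of the scrambled library.

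For 2 relatives the opposite arm had reads while the seed-bearing 5p arm had no row. For miR-424-3p the ODD replicates gave 0, 5 and 0 reads, the EVEN replicates 0, 4 and 1, and the scrambled library 0. miR-195-3p had 1 read, in ODD replicate 2. Neither carries the family seed. The difference of miR-424-3p between X1 and scrambled probes was 2.20 on the log2(RPM + 10) scale (95% interval -2.72 to 7.12, adjusted p = 0.673 by limma), and that of miR-195-3p was not tested.

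miR-103a-3p and miR-107 carry the same 7 bases shifted by 1 position, at bases 1 to 7, and are known to share some targets with the family. They are shown for the offset, with the 7 bases in capitals.
miR-103a-3p: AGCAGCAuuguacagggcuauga
miR-107: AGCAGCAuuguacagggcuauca
miR-103a-3p averaged 3430 ± 882 RPM over the X1-probe libraries (SD, n = 6), against 4089 RPM, from 19 reads, in the scrambled one. Its limma difference on the log2(RPM + 10) scale was -0.30 (95% interval -1.17 to 0.56, adjusted p = 0.692). miR-107 averaged 652 ± 278 RPM over the X1-probe libraries (SD, n = 6), against 430 RPM, from 2 reads, in the scrambled one, a limma difference of 0.49 (95% interval -1.29 to 2.28, adjusted p = 0.746). Neither offset-seed microRNA passed, and miR-16-5p had the highest mean level of the 6 microRNAs with a row that hold these 7 bases at either place.

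By mean level over the 7 libraries miR-16-5p ranked 25 of 480, at 5446 ± 1196 RPM (SD, n = 7). Above it stood miR-125b-5p at 6064 ± 1425 RPM and miR-1246 at 5824 ± 1150 RPM. Below it stood miR-146a-5p at 5033 ± 746 RPM and miR-25-3p at 4982 ± 1395 RPM. The gap between any adjacent pair of these 5 was smaller than the SD of either over the libraries. Their order was not tested.

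**Figure D4:**
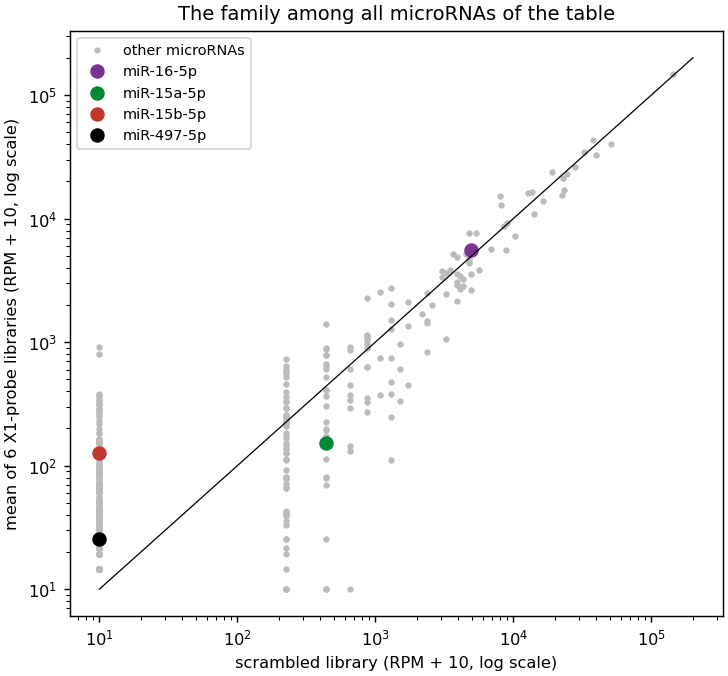
Mean level in the 6 X1-probe libraries (y axis) against the level in the scrambled library (x axis), both as RPM + 10 on log scales, for the 480 mature microRNAs (grey) with the family members in colour and the line of equal levels. miR-16-5p lies close to the line, at 5529 RPM with X1 probes and 4949 RPM with scrambled probes, while miR-15b-5p and miR-497-5p lie at the left edge with 0 scrambled reads and miR-15a-5p lies at 2 scrambled reads.

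The pattern of miR-16-5p over the 7 libraries was set beside those of the 67 other tested microRNAs with a mean of at least 1000 RPM. The highest Pearson correlations of log2(RPM + 10) were with miR-30e-5p (0.83), miR-192-5p (0.81) and miR-99b-5p (0.79), where the median over the 67 was 0.011. All 7 points share their library totals, and all 3 microRNAs had their highest level in ODD replicate 1, where miR-16-5p was highest too. Their levels in that library were 3789, 1756 and 6099 RPM. Without ODD replicate 1 the correlations were 0.28, 0.31 and -0.043, so the likeness rested on that library.

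Because miR-16-5p is abundant in red blood cells, microRNAs of blood were read beside it. Of 8 listed, 5 had a row, and their summed level was 0 to 629 RPM with X1 probes and 215 RPM with scrambled probes. The red-cell microRNA miR-451a had 1 read over the 7 libraries, in ODD replicate 1, and miR-144-3p and miR-144-5p had no row among those used here. For miR-451a, 0 reads allow up to 741 RPM in the shallowest library, ODD replicate 3. miR-486-5p, also abundant in red cells, had 22 reads with X1 probes, at 0 to 629 RPM, and 1 with scrambled probes, at 215 RPM. The part of blood RNA in the level of miR-16-5p was not tested. Of the other lists, summed levels with X1 and scrambled probes were 108 to 494 and 0 RPM for epithelium (3 of 5 with a row), 84.5 to 741 and 646 RPM for muscle (2 of 3), 92.4 to 494 and 1291 RPM for neuron (2 of 2), and 0 to 210 and 0 RPM for endothelium (1 of 1). The scrambled values for muscle and neuron rest on 3 and 6 reads, where 1 read was worth 215 RPM. With X1 probes these lists had 18 and 31 reads. The liver microRNA miR-122-5p had no row.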

How the data were processed

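Small RNA was sequenced from 7 captures in A375 cells: 3 ODD, 3 EVEN and 1 scrambled, grouped by sample title. The authors deposited RPM for 498 rows of hairpin and mature name, and each column summed to 1e+06. The submitters' processing notes name CASAVA 1.8 and cutadapt 1.2.1. The aligner, annotation, genome build and counting rule used for the table were each not given in the sources used here. Every deposited RPM value was a whole multiple of 1 read at a tolerance of 1e-06 (100% of values), which gave reads and depths.

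Of several hairpin rows, the highest by RPM was kept for each of 480 mature names. On log2(RPM + 10), limma 3.58.1 (R 4.3.3) tested differences for microRNAs of at least 10 RPM in at least 3 of 7 libraries (242), with a mean per group, eBayes with a trend, 4 residual degrees of freedom and Benjamini-Hochberg adjustment over all 242 at 0.05, two-sided. The X1-probe value is the mean of the ODD and EVEN means. The design text calls the captures independent and says no more of their source. Sequences and gene spans are RefSeq's (GRCh38.p14); 406 of 480 names matched.

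Named microRNAs were the 4 members, 5 relatives, 8 opposite arms, 3 offset-seed names, 2 neighbours in level on each side, the 3 most alike, any called microRNA and cell type markers. Members and lists were chosen with earlier results of these data known. Same-numbered ODD and EVEN libraries did not deviate together (correlations -0.044, 0.072 and 0.019), so the main fit has no block. Figures used matplotlib 3.10.9.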

Additional observations from a re-analysis of the deposited data

Results flagged for a closer look

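miR-16-5p in ODD replicate 1, at 7947 RPM, stood apart from the remaining 5 X1-probe libraries, of which the highest had 5661 RPM. Its gap to the nearest library was 0.648 of the range of the 6, above Dixon's critical value of 0.625. Without it the X1-probe mean was 5046 ± 564 RPM (SD, n = 5), against 4949 RPM with scrambled probes. With 4 members looked at, chance sets about 1 in 20 groups of measured values apart in this way. miR-497-5p also met the criterion in ODD replicate 1, at 92.4 RPM, but a single read among libraries at 0 does so whichever library holds it, so this says nothing about that library.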

How the results depend on the processing

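In every alternative run 0 tested members passed in either comparison. The difference of miR-16-5p between X1 and scrambled probes ran from -0.052 to 0.20 on the log2 scale over 16 other settings, with adjusted p from 0.759 to 0.998 by limma; it turned to -0.052 with the replicate number as a block (adjusted p = 0.983 by limma), which gives the scrambled library the number of replicate 3. Between ODD and EVEN it ran from 0.12 to 0.47. That of miR-15a-5p against scrambled ran from -5.46 to -1.35. The lowest, under the replicate block, had a 95% interval of -10.15 to -0.77, which leaves out 0 (adjusted p = 0.386 by limma), and compares 0 reads in both replicate 3 libraries with 2 scrambled reads. For miR-15b-5p that difference ran from 0 (under the replicate block) to 4.83 (with pseudocount 1). The ODD minus EVEN difference of miR-15a-5p turned to -0.58, -0.042 and -0.86 without ODD replicate 1, ODD replicate 2 and EVEN replicate 3, and that of miR-15b-5p to 0.13 without ODD replicate 3. With a library left out these 2 differences ran from -0.86 to 2.04 and from -2.55 to 0.13. These turns rest on 0 to 6 reads a library.

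Of all microRNAs, the 2 higher calls of X1 probes against scrambled became 1 under quantile scaling and 0 under the replicate block and limma-voom on the recovered reads, which was chosen after seeing the data. They were 2 to 3 when a library was left out. Lower calls rose to 9 with no filter, all of them microRNAs with 0 reads from X1 probes, among them miR-503-5p with its 1 scrambled read. With 1 scrambled library, such a microRNA cannot meet the main filter of at least 10 RPM in at least 3 libraries. Its ODD and EVEN libraries have no spread, so these calls do not measure a difference reliably. Lower calls rose to 1 with limma-voom, and stayed at 0 when a library was left out. For ODD against EVEN the 1 lower call became 0 under pseudocount 1, no filter, a mean of at least 200 RPM, quantile scaling, RPM over 1 row per mature name and the replicate block, and without the eBayes trend there were 3 others, miR-153-3p, miR-194-5p and miR-6756-3p, and let-7f-5p did not pass. Leaving out a library gave 0 to 1 lower and 0 to 2 higher calls, with 0 lower without ODD replicate 1, ODD replicate 3 or EVEN replicate 2, and 2 higher without EVEN replicate 1 or EVEN replicate 2. The causes were not tested. The planned edgeR alternative was not run, and limma-voom took its place. Depth limits miR-15a-5p, miR-15b-5p and miR-497-5p most.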
